A study of Homo sapiens with 6 samples.

Results

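Small nuclear and small nucleolar RNA genes, together with the genes of the 7SL, 7SK, RNase MRP, RNase P, telomerase and vault RNAs, were examined in RNA sequencing of U87-MG, a human glioblastoma cell line. The members were 71 of the 2369 genes with a symbol of these families (SNORA, SNORD, SCARNA and RNU with a number, RN7SK, RN7SL1 to RN7SL3, RMRP, RPPH1, TERC and VTRNA) whose counts summed to at least 20 over the 6 libraries, in a table of 61806 genes. They were thus chosen by their summed counts, and that a member was counted at all is a description with no test. The line was sequenced as 3 negative control (NC) libraries and as 3 libraries that carry the label GRIK1 siRNA, with no drug or time point given for either group. GRIK1 encodes a kainate-type glutamate receptor subunit, and the comparison asked what its knockdown does to the transcriptome. The labels call the siRNA libraries a knockdown and name siRNA 1, 2 and 3, the submitters' design text speaks of an shRNA, and neither says whether the numbers mark cultures or siRNA sequences. The p-values below therefore measure only the spread between these libraries, which may be technical.

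The RNAs of these genes work as parts of RNA-protein particles. The U1, U2, U4, U5 and U6 small nuclear RNAs (snRNAs) form the spliceosome, U4atac and U6atac serve the minor spliceosome, and U7 guides the 3′ end cutting of histone transcripts. Box C/D small nucleolar RNAs (snoRNAs) mostly guide 2′-O-methylation and box H/ACA snoRNAs guide pseudouridylation of ribosomal RNA, while small Cajal body RNAs (scaRNAs) do the same for snRNAs. The 7SL RNA is the scaffold of the signal recognition particle, and vault RNAs are short RNA polymerase III products bound to the vault particle. Most human snoRNAs lie in introns and are cut out of the host transcript, and the genome holds many more copies of the snRNA genes than functional genes. Most of these copies carry symbols that end in P, as does RNU2-2P, which is listed below with the functional genes.

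The targeted gene was not lower in the libraries labelled GRIK1 siRNA. GRIK1 had 18, 9 and 8 counts in NC libraries 1, 2 and 3, and 15, 20 and 20 in siRNA libraries 1, 2 and 3. The difference on log2(FPKM + 1) was 0.12, with a two-sided exact permutation p of 0.4, where 3 libraries against 3 cannot give less than 0.1. NC library 3 stood apart from the other 5 in several ways. Ribosomal protein genes took 8.45% of its counts against 4.35 to 4.99% in the others, MALAT1 and NEAT1 together 403 CPM (counts per 1000000 counts of the library) against 1118 to 2083, and genes that lie wholly in introns of other genes (sense_intronic in GENCODE) 250 CPM against 452 to 562. Nuclear ribosomal RNA genes held 7 counts in NC library 3 and 104 to 445 in the others. The common dispersion of the counts was 0.0391 over all libraries and fell to 0.00298 once NC library 3 was left out, so log2 fold changes of single members are also given without it. Total counts per library lay between 11099909 and 14006968. The glioma line's VIM, CD44 and TNC were present in every library (239 CPM or more). TNC was at 239 CPM in NC library 3 and at 1390 to 1571 in the others. NES was low (1.14 to 3.86 CPM), and the 3 genes of the deleted 9p21 region were at 0.5 CPM or less. The immune, epithelial, endothelial, neuronal and oligodendrocyte markers lay between 0 and 5.37 CPM.

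Few of these genes were counted, and the members took between 0.00712 and 0.0211% of a library's counts. Of the 2369 genes with a matching symbol, 1731 had no count in any library and 567 had 1 to 19 counts. The 71 members were 37 spliceosomal snRNA genes, 13 box H/ACA and 12 box C/D snoRNA genes, 5 U7 genes, 2 of the 3 7SL genes, 1 scaRNA gene (SCARNA8) and 1 vault RNA gene. Against the number of matching genes, these were 37 of 1655, 13 of 214, 12 of 314, 5 of 149, 2 of 3, 1 of 23 and 1 of 6. A member had a median of 33 counts over the 6 libraries and 59 of 71 had fewer than 60, so most values below rest on a handful of reads per library. The members were 60 to 699 bases long with a median of 107, against a median exonic size of 4070.5 bases over all tested genes. At the threshold, 13 members had summed counts of 20 to 22 and 8 genes were left out at 18 or 19. Just outside were VTRNA2-1, SNORD9, SCARNA6, RNU6-282P, SCARNA10, SNORD19, RNU6-1095P and RNU6-1238P, and just inside were SNORA11, SNORA75, SNORA68B, SNORA22, SNORA9B, SNORD46, SNORD83A, RNU1-36P, RNU6-1101P, RNU6-137P, RNU6-516P, RNU6-1153P and RNU6-652P.

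Among 29 symbols of well-known functional genes, 11 were at 0 in all 6 libraries, 12 had 1 to 19 counts and 6 were members. The genes listed at 0 included RN7SK, RN7SL2, RPPH1, VTRNA1-1, SNORD118 (U8), SNORA73A, RNU1-1, RNU2-2P, RNU7-1, RNU12 and SCARNA2. A count of 0 allows up to 3 counts in a library, and this limit covers counting error only. Several of these genes share their bases with another entry of the table. RN7SK overlaps a second entry named 7SK, RMRP is listed under 2 identifiers, TERC overlaps an entry named Telomerase-vert, and RN7SL2 is 98.7% identical to RN7SL1, so reads could have been left uncounted or counted elsewhere. RPPH1, SCARNA2, RNU12, SNORD118, RNU7-1, RNU2-2P and SNORA73A lie within the span of another gene on the same strand. Whether this affected their counts was not tested. Most of these RNAs have no poly(A) tail, and neither the RNA selection nor the fragment size of the libraries is given in the sources used here, so a low count in this table does not show a low level in the cells. The 6 members among these 29 symbols were RN7SL1, RN7SL3, SNORD3A, SNORA73B, RNU4-2 and VTRNA1-2.

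By their sequence, nearly all snRNA members were copies and not the functional genes. Of the 42 members with an RNU symbol, 41 have a symbol ending as a pseudogene, and RNU4-2 is the exception. The 25 U6 members were 74.8 to 96.3% identical to RNU6-1, a functional U6 gene, with a median of 86.0% (identical bases as a percent of the shorter sequence, in alignments that allow gaps), and 5 of 25 reached 90%. Across these 25, the Spearman correlation of identity with the summed count was 0.408, which is a description of genes from the same libraries. The ACAGAGA box, the stretch of U6 that pairs with the 5′ splice site, was present in 12 of 25 members (48.0%) and in 692 of all 1277 U6 entries (54.2%), searched for those exact letters on the gene's own strand. RNU6-850P, at chr6:31756951-31757053 (minus strand) of GRCh38, is shown as a diverged copy (86 identical bases) on which the group comparison below turns, and the letters of the box are not in it. This and the sequences below are GENCODE 29 transcripts, written 5′ to 3′ as DNA.
RNU6-850P: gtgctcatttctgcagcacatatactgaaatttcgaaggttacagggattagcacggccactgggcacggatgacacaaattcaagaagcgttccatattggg

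RNU6-1 itself had 1 count in NC library 2, 1 in siRNA library 1 and none elsewhere. The other copies were similarly diverged. The U2 copies were 81.5 to 93.7% identical to RNU2-2P, the U1 copies 81.1 to 86.9% to RNU1-1, the U7 copies 85.0 to 91.9% to RNU7-1, the U6atac copies 89.1 and 92.9% to RNU6ATAC, and both U4 copies 78.7% to RNU4-2. RNU2-38P, the sixth member by counts, is a truncated U2 copy at chr1:148939739-148939817 (minus strand), in an intron of PDE4DIP on the other strand. It is shown beside the whole U2 entry RNU2-2P, chr11:62841619-62841809 (minus strand), because it is a copy whose groups did not overlap. Its first 52 bases are those of U2, and 74 of its 79 bases are identical in an alignment that needs 21 bases of gaps. The first part holds the GTAGTA stretch (in capitals) that pairs with the branch point.
RNU2-2P: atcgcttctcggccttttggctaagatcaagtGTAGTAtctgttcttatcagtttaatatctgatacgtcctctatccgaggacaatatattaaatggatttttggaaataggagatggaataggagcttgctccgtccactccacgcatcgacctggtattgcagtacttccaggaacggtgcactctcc
RNU2-38P: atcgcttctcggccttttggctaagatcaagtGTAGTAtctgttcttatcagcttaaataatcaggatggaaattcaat

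The snoRNA members, in contrast, mostly carried the motifs of their class. All 12 box C/D members had the CTGA of the D box in their last 25 bases, as did 289 of 314 box C/D entries (92.0%), and 9 of 12 (75.0%) had TGATGA of the C box in their first 25 bases, against 208 of 314 (66.2%). All 13 box H/ACA members ended with ACA within the last 8 bases, against 177 of 213 (83.1%). The following snoRNAs are shown because the group comparison below turns on them or because they lead the counts, with the ACA, or the C and D boxes, in capitals. SNORA73B lies at chr1:28508559-28508762 (plus strand), SNORA31 at chr13:45337480-45337609 (minus), SNORA11 at chrX:54814370-54814497 (plus) and SNORD123 at chr5:9548836-9548905 (plus).
SNORA73B: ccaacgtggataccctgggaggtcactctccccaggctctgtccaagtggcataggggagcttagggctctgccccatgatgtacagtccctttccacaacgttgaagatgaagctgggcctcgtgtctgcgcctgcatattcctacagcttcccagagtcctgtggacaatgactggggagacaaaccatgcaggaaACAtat
SNORA31: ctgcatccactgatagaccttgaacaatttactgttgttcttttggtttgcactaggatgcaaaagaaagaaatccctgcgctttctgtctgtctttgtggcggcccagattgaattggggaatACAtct
SNORA11: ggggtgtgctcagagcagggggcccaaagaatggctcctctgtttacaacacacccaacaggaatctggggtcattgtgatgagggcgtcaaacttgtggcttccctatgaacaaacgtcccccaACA
SNORD123: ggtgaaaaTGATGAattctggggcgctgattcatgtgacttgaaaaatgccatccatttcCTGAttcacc

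One gene held most of the counts. RN7SL1, inside an intron of RPS29 on the other strand, took 64.3% of all member counts and had a mean FPKM (counts scaled to the exonic length and to the total count of the library) of 301, rank 88 of the whole table. The next members per length were RNU6ATAC18P (22.5), RNU2-38P (19.9), RN7SL3 (19.3), RNU7-123P (13.5), SNORA33 and RNU6-30P (both 11.4), SNORD19C (11.4), SNORD62B (10.2) and SNORD100 (9.85). The median member had a mean FPKM of 4.22.

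The 7SL genes varied more among the NC libraries than between the groups. RN7SL1 had 570, 1577 and 641 counts in NC libraries 1 to 3 and 1338, 1235 and 1256 in the siRNA libraries. Its normalized CPM (CPM with TMM scaling) was 80.9 ± 51.9 in NC and 97.3 ± 6.38 in the siRNA libraries (SD, n = 3), so the siRNA values lay between the low pair of NC libraries and NC library 2. The log2 fold change of 0.27 ± 0.39 (SE) did not pass the test (adjusted p = 0.683, edgeR quasi-likelihood). It was 0.03 without NC library 3 and 0.93 without NC library 2 (adjusted p = 0.0942, edgeR), the lowest adjusted p of any member in that fit. RN7SL3 had 30, 91 and 36 counts in NC and 76, 102 and 91 in the siRNA libraries, with a log2 fold change of 0.59 ± 0.42 (adjusted p = 0.403, edgeR), 0.34 without NC library 3 and 1.30 without NC library 2 (adjusted p = 0.105, edgeR). In normalized CPM both genes were highest in NC library 2 and lowest in NC libraries 1 and 3. The transcripts are 97.7% identical (292 of 299 bases), and RN7SL1 had 12.1 to 19.0 counts for each count of RN7SL3. How the authors handled reads that match both is not given, and its part in the split between the copies was not tested.

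U3 and U4 were also highest in NC library 2. SNORD3A encodes U3, a box C/D snoRNA needed to cut the precursor of 18S ribosomal RNA, and its gene spans chr17:19188016-19188714 on the plus strand. It had 26, 218 and 62 counts in NC libraries 1 to 3 and 85, 53 and 47 in the siRNA libraries. The groups overlapped and NC library 2 alone held the highest value (19.5 normalized CPM against 2.30 to 6.64 elsewhere). The log2 fold change was -0.91 ± 0.70 (adjusted p = 0.436, edgeR), and it was -1.20 without NC library 3 and turned to 0.37 without NC library 2. RNU4-2, a functional U4 gene at chr12:120291763-120291903 (minus strand), had 1, 17 and 1 counts in NC and 16, 2 and 2 in the siRNA libraries. It was thus high in 1 library of each group, and its log2 fold change was -0.10 ± 1.20 (adjusted p = 0.963, edgeR), -0.64 without NC library 3 and 2.47 without NC library 2. The U6 copy RNU6-431P, named after its values were seen, was high in the same pair of libraries, with 3, 12 and 1 counts in NC and 12, 3 and 3 in the siRNA libraries. RNU4-1, another functional U4 gene that is 97.2% identical to RNU4-2, was no member. It had 1, 6 and 4 counts in NC and 2, 0 and 2 in the siRNA libraries. U3 and U4 are printed to show the functional RNAs that were counted, with the D box of U3 and the Sm-binding stretch of U4 in capitals, and the U3 sequence is the 217-base transcript within the longer gene.
SNORD3A: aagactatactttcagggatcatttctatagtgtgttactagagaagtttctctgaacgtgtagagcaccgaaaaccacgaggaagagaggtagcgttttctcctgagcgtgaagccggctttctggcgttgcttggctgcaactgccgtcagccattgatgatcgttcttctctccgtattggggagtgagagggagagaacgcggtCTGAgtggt
RNU4-2: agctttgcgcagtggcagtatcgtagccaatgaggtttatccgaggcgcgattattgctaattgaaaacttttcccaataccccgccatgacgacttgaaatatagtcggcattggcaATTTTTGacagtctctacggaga

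**Figure D1:**
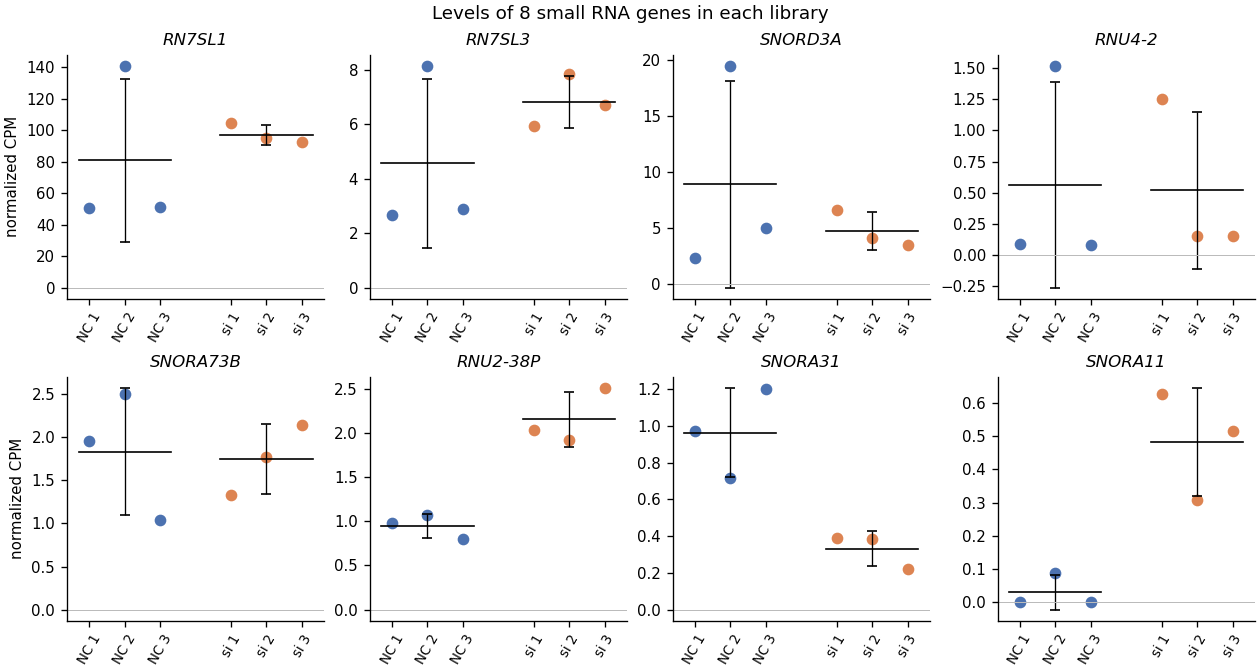
Normalized CPM (y axis, linear, each panel with its own scale) of 8 members in NC libraries 1 to 3 (blue) and siRNA libraries 1 to 3 (orange, si), with the group mean as a line and the SD as a bar. NC library 2 is highest for RN7SL1, RN7SL3, SNORD3A and RNU4-2, while RNU2-38P, SNORA31 and SNORA11 have groups that do not overlap.

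Beyond the 7SL genes and SNORD3A, the other 68 members added up to nearly the same level in 5 of the 6 libraries. Their sum was 38.6, 41.0 and 18.4 CPM in NC libraries 1 to 3 and 40.5, 42.8 and 43.45 in the siRNA libraries. NC library 3 was the low one, at under 20 CPM, and 12 of the 71 members had no count there, against 0 to 2 members in each other library. It was the lowest library for 35 of 71 members (49.3%), for 35.8% of all tested genes and for 42.8% of tested genes with a like mean count (3.33 to 20 per library). The 37 spliceosomal snRNA members were also lowest in NC library 3, with 20.2, 23.4 and 7.57 CPM in NC and 23.3, 21.9 and 25.1 in the siRNA libraries. The 25 U6 copies among them had 12.6, 12.1 and 4.43 in NC and 14.9, 13.9 and 12.9 in the siRNA libraries. The 13 box H/ACA members had 9.55, 8.45 and 5.21 in NC and 6.38, 10.1 and 8.40 in the siRNA libraries, with overlapping groups. The low values of NC library 3 stood beside its low sense-intronic and MALAT1 and NEAT1 counts given above, and their part in the result was not tested.

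The 567 matching genes below the threshold behaved a little differently. They summed to 27.4, 27.9 and 14.1 CPM in NC and to 36.8, 44.4 and 37.5 in the siRNA libraries, so that the siRNA libraries were higher than each NC library. The number of matching genes with at least 1 count was 253, 261 and 185 in NC and 308, 348 and 335 in the siRNA libraries. The siRNA libraries also had more genes of any kind with a count, 26134 to 27049 against 23902 to 24993, and more sense-intronic counts than NC libraries 1 and 2. Total counts were 11099909, 11123053 and 14006968 in NC and 12384768, 12621674 and 13210932 in the siRNA libraries. The part of depth in these numbers of genes was not tested.

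**Figure D2:**
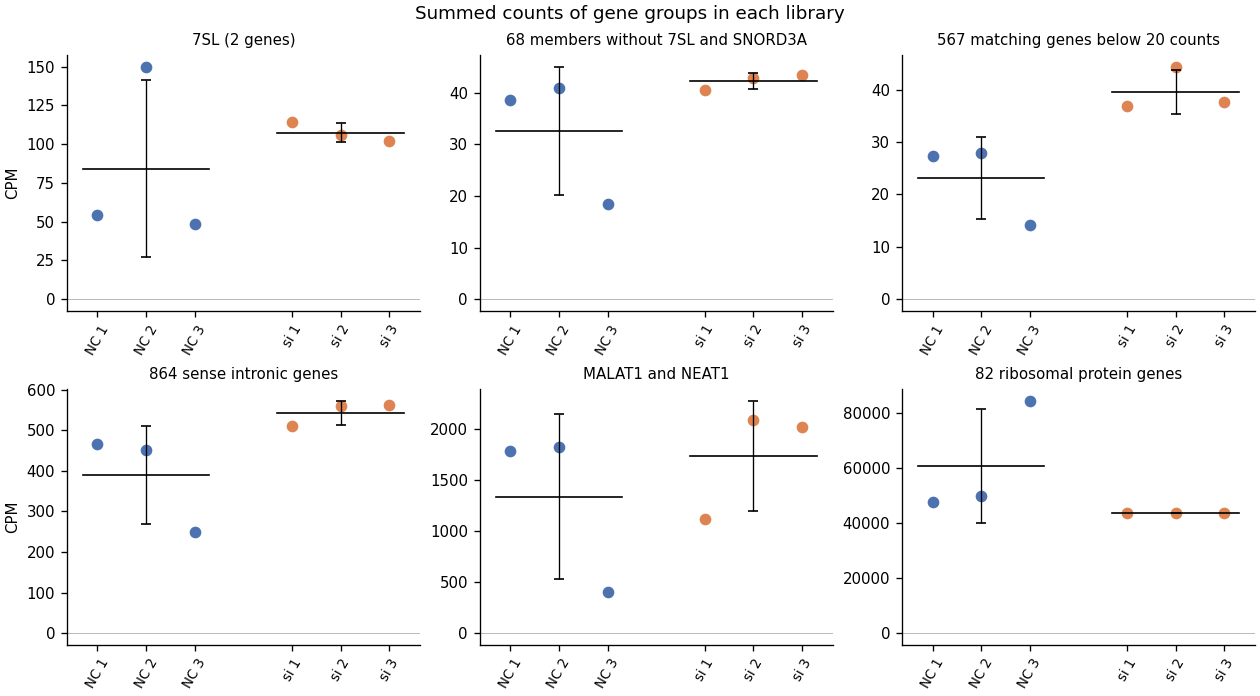
Counts per 1000000 counts (CPM, y axis, linear, each panel with its own scale) summed over groups of genes in NC libraries 1 to 3 (blue) and siRNA libraries 1 to 3 (orange, si), with group mean and SD. NC library 3 is the lowest for the 68 members, the genes below the threshold, the sense-intronic genes and MALAT1 with NEAT1, and the highest for the ribosomal protein genes, while the 7SL sum is highest in NC library 2.

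With all 6 libraries, no member passed the test between the groups. All 71 were among the 15870 tested genes, and 0 of 71 were called or had an adjusted p under 0.05 by edgeR, against 1.41% of tested genes called at an absolute log2 fold change over 1 and 3.08% with an adjusted p under 0.05. Of tested genes with a like mean count, 0.858% were called. At an unadjusted p under 0.05 there were 7 members by edgeR and 4 by DESeq2 (also with 0 calls), and 25.1% of all tested genes passed that mark by edgeR. The 7 were RNU2-38P, SNORA11, RNU7-40P, RNU1-72P and RNU6-415P with higher values in the siRNA libraries, and SNORA31 and RNU1-36P with lower values. The median log2 fold change of the members was 0.39, with 48 above and 23 below 0, against -0.02 over all tested genes. Tested genes with a like mean count had a median of 0.35, and 65.7% of them lay above 0 against 67.6% of the members. Without NC library 3 the members' median was 0.12. The groups did not overlap for 12 members that were higher in the siRNA libraries and 4 that were lower. Of all tested genes, 19.4% were higher and 19.0% lower in this way. Among the higher members, SNORA11, RNU7-40P, RNU5B-2P, RNU7-49P, RNU6-415P and RNU6-1048P would have missed the summed-count threshold with their NC counts in both groups. Among the lower, RNU1-36P and SNORA22 would have missed it with their siRNA counts in both groups. The 12 and 4 thus depend in part on how the members were chosen and cannot be weighed against all tested genes. A typical member had an SE of 0.64, against 0.22 over all tested genes and 0.54 over those with a like mean count. Small changes of the members were not detectable at this depth.

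By class, the median log2 fold changes with all libraries and without NC library 3 were 0.61 and 0.35 for the 37 spliceosomal snRNA members, 0.55 and 0.50 for the 5 U7 members, 0.24 and 0.14 for the 12 box C/D members, and 0.14 and -0.15 for the 13 box H/ACA members. None of these is a test. The sign of the H/ACA median depended on NC library 3.

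Leaving out NC library 3 brought 3 members past the call, 2 higher and 1 lower. These were 4.23% of the members, against 3.09% of all tested genes and 6.82% of tested genes with a like mean count. A fit that weights the libraries by their quality (limma voom) gave NC library 3 a weight of 0.0499. It called 6 members (8.45%), 3 higher and 3 lower, against 4.65% of all tested genes and 14.7% of those with a like mean count. Of the higher calls, SNORA11 and RNU6-415P would have missed the summed-count threshold with their NC counts in both groups. SNORA11 was also called higher without NC library 3. Member shares in both fits thus depend in part on how the members were chosen and cannot be weighed against other genes. An adjusted p under 0.05 at any fold change was reached by 3 members without NC library 3 and by 7 in the weighted fit, against 35.2% and 39.9% of all tested genes. Among tested genes with a like mean count, 6.86% reached it without NC library 3, against 4.23% of the members. RNU2-38P, the truncated U2 copy, was in both sets. It had 11, 12 and 10 counts in NC and 26, 25 and 34 in the siRNA libraries, and the groups did not overlap. Its log2 fold change was 1.18 ± 0.29 with all libraries (adjusted p = 0.0744, edgeR) and 1.07 without NC library 3 (adjusted p = 0.0286, edgeR).

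SNORA11, an H/ACA snoRNA in an intron of MAGED2, had 0, 1 and 0 counts in NC and 8, 4 and 7 in the siRNA libraries. The summed counts, 19 against 1, gave a ratio of 18.0 after scaling to the total counts, with a 95% exact interval of 2.86 to 748, which covers counting error only. By edgeR its adjusted p was 0.0778 over the 6 libraries, and 0.0370 when NC library 3 was left out. The gene sat at the threshold with 20 counts in all and passed it through the siRNA libraries, so its place among the members depended on its being high there. SNORA11F, 89.1% identical, was also a member, with 14, 5 and 7 counts in NC and 9, 11 and 10 in the siRNA libraries.

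RNU6-850P, a diverged U6 copy in an intron of MSH5 on the other strand, had 11, 13 and 0 counts in NC and 1, 5 and 6 in the siRNA libraries. With all libraries the groups overlapped through NC library 3, and the log2 fold change was -1.17 ± 1.02 (adjusted p = 0.490, edgeR). Without it the value was -1.78 (adjusted p = 0.0305, edgeR). SNORA31, which guides pseudouridylation and overlaps an exon of TPT1 in part, was lower in each siRNA library, with 5, 5 and 3 counts against 11, 8 and 15 in NC. Its log2 fold change was -1.52 ± 0.45 (adjusted p = 0.103, edgeR) and it was -1.33 without NC library 3. It was called only by the weighted fit (adjusted p = 0.0259), as were RNU6-415P and SNORD123. RNU6-415P had 1, 3 and 4 counts in NC and 7, 8 and 8 in the siRNA libraries, with a log2 fold change of 1.32 ± 0.54, and 1.66 without NC library 3. With its NC counts in both groups it would have missed the summed-count threshold. Its place among the members thus depended on its being high in the siRNA libraries, as for SNORA11. SNORD123, a box C/D snoRNA of the host gene SNHG18, had 8, 8 and 1 counts in NC and 3, 5 and 2 in the siRNA libraries, with a log2 fold change of -0.93 ± 0.79, and -1.45 without NC library 3.

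The groups also did not overlap for several copies that no fit called. RNU7-40P, a U7 copy in STAT2, had 2, 3 and 0 counts in NC and 8, 7 and 10 in the siRNA libraries (log2 fold change 2.07 ± 0.73, edgeR adjusted p = 0.144, and 1.47 without NC library 3). RNU1-72P, a U1 copy in STRIP2, had 5, 4 and 1 against 7, 10 and 16. RNU1-36P had 5, 4 and 6 against 1, 3 and 2, and its log2 fold change was -1.43 ± 0.59, and -1.34 without NC library 3. These copies were named because of their p-values and so after those were seen. With the NC counts of RNU7-40P in both groups, it would have missed the summed-count threshold. RNU1-36P would have missed it with its siRNA counts in both groups. The place of each among the members, like that of SNORA11, thus depended on the group in which it was high. The near-complete U6 copy RNU6-30P had 13, 12 and 3 counts in NC and 17, 24 and 21 in the siRNA libraries, with a log2 fold change of 0.95 ± 0.51 (adjusted p = 0.280, edgeR) and 0.50 without NC library 3. VTRNA1-2, the only vault RNA member, at chr5:140718925-140719013, had 4, 3 and 3 counts in NC and 11, 7 and 5 in the siRNA libraries. Its groups did not overlap, and its log2 fold change was 1.01 ± 0.53 (adjusted p = 0.275, edgeR), and 0.89 without NC library 3. RNU6ATAC18P, the second member per length, had 37, 40 and 18 counts in NC and 11, 18 and 41 in the siRNA libraries, so that each group held 1 library at the level of the other group. Its log2 fold change was -0.64 ± 0.52, and -0.95 without NC library 3 (adjusted p = 0.0572, edgeR). In the weighted fit it was -0.91 (adjusted p = 0.0307, limma voom), under the size for a call.

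**Figure D3:**
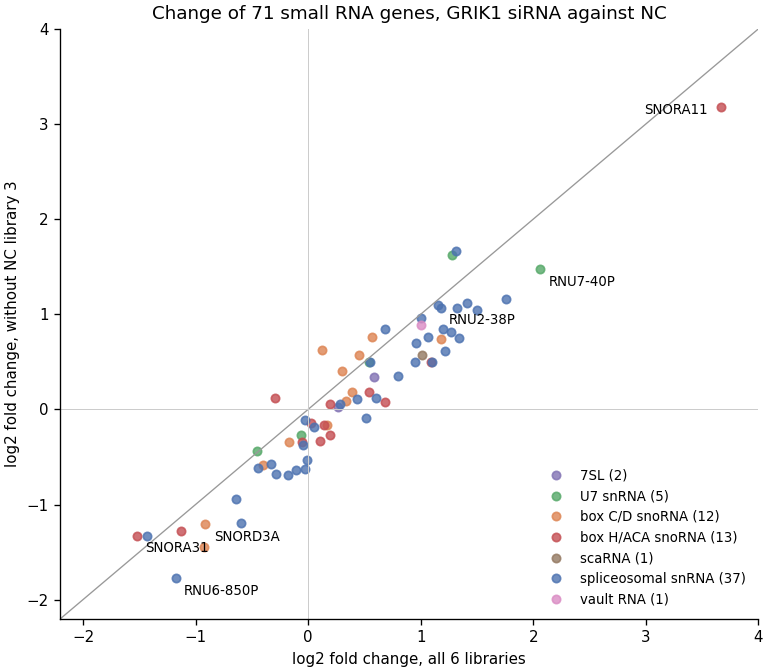
Log2 fold change (libraries labelled GRIK1 siRNA against NC) of the 71 members with all 6 libraries (x axis) and without NC library 3 (y axis), coloured by class, with the line of equality; the value of SNORA11, with 1 count in NC, depends on the fit. Most points lie below the line, and the median falls from 0.39 to 0.12.

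Of the 71 members, 41 lay inside another gene on the same strand, 16 inside a gene on the other strand only and 14 outside other genes. Where several genes spanned a member, the one with the most counts was taken as its host. The host named here need not be the gene whose transcript yields the small RNA. Of the 41, 38 lay in an intron of the GENCODE 29 host, 2 overlapped an exon in part (SNORA31 in TPT1 and RNU6-312P in PPIL3) and the host of SNORD62B, PRRC2B, is under an identifier that GENCODE 29 does not hold. Reads of an unspliced host transcript and of the small RNA cannot be told apart in these counts, nor can the strands, since the strand setting is not given in the sources used here. The host was tested for 40 members. The log2 fold changes had the same sign in 22 of 40 pairs, with a Pearson correlation of 0.203 and a Spearman correlation of 0.245 across the pairs, and 0.081 and 0.028 without NC library 3. The pairs share libraries and some share a host, so these are descriptions.

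Of the 37 tested hosts, 2 were called, both lower, against 1.41% of all tested genes, and the small RNA genes inside them did not pass the test. RCC1, the nucleotide exchange factor of the Ran GTPase, fell in the siRNA libraries from 134, 132 and 206 to 65.6, 69.8 and 75.3 normalized CPM (log2 fold change -1.16, adjusted p = 0.0344, edgeR). SNORA73B, the H/ACA snoRNA U17b, lies in an intron of RCC1, and which transcript it is cut from was not tested. SNORA73B had 22, 28 and 13 counts in NC and 17, 23 and 29 in the siRNA libraries. Its log2 fold change was -0.06 ± 0.38, and -0.34 without NC library 3. SOD2, the mitochondrial superoxide dismutase, fell from 2608, 2718 and 4439 to 1402, 1458 and 1460 normalized CPM (-1.18, adjusted p = 0.0444, edgeR), while the U4atac copy in its intron, RNU4ATAC18P, had a log2 fold change of 1.22 ± 0.91. That of RNU4ATAC18P, with 1, 6 and 0 counts in NC and 7, 4 and 8 in the siRNA libraries, was 0.62 without NC library 3 and 3.24 without NC library 2. With its NC counts in both groups RNU4ATAC18P would have missed the summed-count threshold, so its place among the members depended on its siRNA counts. NC library 3 was the highest library for both hosts, and without it their log2 fold changes were -0.92 and -0.89, under the size for a call. Their adjusted p in that fit was 5.06e-09 for RCC1 and 2.06e-10 for SOD2 (edgeR), where 35.2% of all tested genes were under 0.05. The difference between a host and its small RNA gene was not tested. MAGED2, the host of SNORA11, had a log2 fold change of 0.18 and TPT1, the host of SNORA31, one of -0.67, and neither passed the test with all libraries. Without NC library 3 these were 0.14 and -0.24 (adjusted p = 0.0356 and 0.00111, edgeR), under the size for a call.

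RPS12, a ribosomal protein gene, is host to 3 members (SNORA33, SNORD100 and SNORD101). It was at 657, 677 and 1929 normalized CPM in NC and 565, 504 and 517 in the siRNA libraries, with NC library 3 the highest. SNORA33 had 19, 15 and 14 counts in NC and 12, 33 and 17 in the siRNA libraries (log2 fold change 0.19 ± 0.43), and SNORD100 had 6, 7 and 9 against 11, 14 and 9 (0.46 ± 0.39), so NC library 3 was the highest library for neither. Without it their log2 fold changes were 0.06 and 0.57. SNORD19C, in an intron of the nucleolar GTPase gene GNL3, had 11, 9 and 6 counts in NC and 20, 13 and 4 in the siRNA libraries (0.34 ± 0.61, and 0.09 without NC library 3). SNORD62B had 8, 8 and 2 against 11, 17 and 19 (1.18 ± 0.53, and 0.74 without NC library 3), with its host PRRC2B at 0.68, and RNU7-123P in ITGB3BP had 10, 11 and 12 against 10, 6 and 11 (-0.46 ± 0.38, and -0.44 without NC library 3). None of these 5 snoRNA and U7 genes passed the edgeR test.

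**Figure D4:**
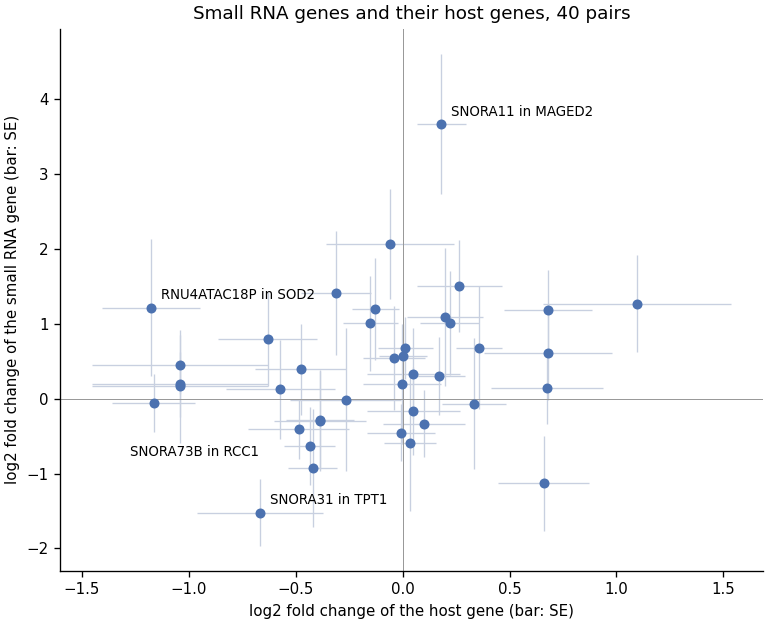
Log2 fold change (libraries labelled GRIK1 siRNA against NC, all 6 libraries) of 40 host genes (x axis) and of the small RNA genes inside them (y axis), with SE bars on both. Of the 40 pairs, 22 have the same sign, and the hosts SOD2 and RCC1 lie far to the left with small RNA genes at 1.22 and -0.06.

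The protein genes of the same particles were also compared, from 13 lists of 128 genes that cover the proteins of the snoRNA particles, snRNP assembly, Sm and LSm rings, transcription of small RNA genes, RNA polymerase III, Integrator, the 7SK, RNase P and MRP, signal recognition, telomerase and vault particles and small RNA decay. Of these, 127 were tested, and only the telomerase gene TERT was below the filter. With all libraries 1 of 127 was called, TEP1, which rose, and 0 were called lower, against 1.41% of all tested genes called in either direction. TEP1, a protein of the vault particle that also binds telomerase RNA, was at 22.9, 16.8 and 8.56 normalized CPM in NC and at 49.3, 46.0 and 46.6 in the siRNA libraries (log2 fold change 1.56 ± 0.31, adjusted p = 0.0461, edgeR; 1.25 without NC library 3). Its call was lost when any 1 library other than NC library 3 was left out, as was every other call of the table. The other vault proteins, MVP and PARP4, did not pass the test. POLR3E, an RNA polymerase III subunit, rose from 33.0, 32.8 and 29.6 to 46.0, 48.6 and 50.0 normalized CPM (0.60 ± 0.11, adjusted p = 0.0422, edgeR), which was under the size for a call. The median of all 127 was -0.06, and -0.34 for the 16 Sm and LSm genes, of which 1 lay above 0. Without NC library 3 that median was -0.01, and 32 of the 127 genes then passed an adjusted p under 0.05 as higher and 15 as lower, where 16.9% of all tested genes passed as higher and 18.3% as lower. TEP1 was again the only call among them, against 3.09% of all tested genes.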

How the data were processed

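RNA of U87-MG cells was sequenced as 3 NC libraries and 3 libraries labelled GRIK1 siRNA, and samples were grouped by their labels alone. The authors deposited 1 table with whole-number read counts per gene, not normalized, and with FPKM, which the authors derived by dividing each count by the gene's exonic size and the library's total. That formula gave 100% of the deposited FPKM values. The submitters' processing notes name cutadapt 1.9.1, HISAT2, HTSeq and GRCh38. Settings for strand and for reads that match several genes are not given in the sources used here. Total counts were 11099909 to 14006968 per library, and 0 columns of values were left unassigned.

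Genes with a mean FPKM of at least 0.5 (15870) were tested on the counts with the quasi-likelihood test of edgeR 4.0.16 (R 4.3.3, TMM scaling, no block, Benjamini-Hochberg adjustment over all tested genes). Genes were called at an adjusted p under 0.05 if the log2 fold change was also beyond 1 in either direction. GRIK1 was compared with a two-sided exact permutation test. DESeq2 1.42.0, limma 3.58.1 (voom with quality weights), other scalings and filters, a robust fit, a replicate block and the omission of each library were tried as alternatives, and the alternatives for host pairs and for genes of like count were added after seeing the data. The fits were tested on simulated counts. The members and the lists were chosen with earlier results of these data known. Genes were named if they led in mean FPKM or mean count, were well-known functional genes, lay within 2 counts of the threshold, were called, with or without NC library 3, or hosted a named member, and others are named as chosen after their values were seen, among them those called only by the weighted fit. Positions, hosts and sequences came from GENCODE 29 (GRCh38), where all 71 members have the same start and end, and identity from global alignment with gaps, free at the ends, in Biopython 1.88. Intervals and limits cover counting error only. Some sequences are not reported here.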

Additional observations from a re-analysis of the deposited data

How the results depend on the processing

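The counts of members called, 0 higher, 0 lower and 0 at an adjusted p under 0.05, were the same under median-of-ratios and total-count scaling, each filter, the replicate block, DESeq2, the robust fit and a fold threshold of 1.5. Voom with quality weights gave 3 higher, 3 lower and 7 at an adjusted p under 0.05. In that fit 39.9% of all tested genes were under 0.05. Among the 3 higher were SNORA11 and RNU6-415P, whose place among the members depended on their siRNA counts. SNORA11 was also called higher without NC library 3. Leaving out each library in turn gave 0 to 2 higher, 0 to 1 lower and 0 to 3 at an adjusted p under 0.05, the highest without NC library 3. In that fit 35.2% of all tested genes passed, and 6.86% of those with a like mean count. The 1 pathway call (TEP1) became 0 under total-count scaling, the replicate block and the robust fit, and was 0 to 1 with a library left out. The median log2 fold change of the members, 0.39, was 0.19 under filterByExpr, which kept 15 members, and 0.12 to 0.59 with a library left out. It was 0.48 under total-count scaling, where the median of all genes moved to 0.07. Of the host pairs, 8 of 10 had the same sign under filterByExpr, against 22 of 40.

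6 of the named genes reversed in some fit, each without passing the test in either direction. RN7SL1 was at -0.04 and SNORD19C at -0.41 under voom with quality weights, and SNORA73B at 0.01 under total-count scaling. With a library left out, SNORD3A lay between -1.36 and 0.37, SNORA73B between -0.34 and 0.23, RNU4-2 between -1.80 and 2.47, SNORA33 between -0.32 and 0.45 and SNORD19C between -0.21 and 0.77. The causes were not tested. With the replicate number as a block, no gene of the table was called and RNU4-2 was at 0.04. Same-numbered libraries deviated from their group means with correlations of -0.0703, 0.0441 and -0.0425. The NC mean includes NC library 3, which stood apart, so these values cannot decide whether the numbers pair the libraries. Depth limits the members, as a typical one has 33 counts over 6 libraries, and so does the spread between libraries, since the common dispersion of 0.0391 was 0.00298 without NC library 3.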
